A study of Mus musculus with 38 samples.

Results

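Peroxisomal fatty acid enzymes and membrane proteins were followed in mouse intestinal stem cell organoids as 9 genes chosen by name: Crot, Abcd3, Pxmp4, Pex11a, Hsd17b4, Ehhadh, Acaa1b, Decr2 and Ech1. All 9 were found among the 54352 gene rows, each in 1 row, and 8 were among the 4729 genes tested after a filter on low counts. Acaa1b was the member that the filter removed. The members were chosen with earlier results of these data known. Crypts of C57BL6 mice were embedded in 65% matrigel and grown for 8 days, passages included. The medium held either GW501516 at 1 uM or the vehicle, 0.1% DMSO. GW501516 (GW), an agonist of the nuclear receptor PPARδ that Ppard encodes, was itself given in 0.1% DMSO. The genotypes were a double knockout of Ppard and Ppara (DA, written Ppard-fl/fl; Ppara-null in the labels), a Ppara knockout (A, Ppara-null), a Ppard knockout (D, Ppard-fl/fl) and wild type (WT). The labels name no recombinase, promoter or age, and they leave unsaid whether each library had its own animal or culture. The p-values below therefore measure only the spread between libraries, which may be technical. The 38 libraries comprised 5 GW and 4 vehicle libraries in DA, 5 and 5 in A, 4 and 5 in D, and 5 and 5 in WT. For 1 of the 4 samples titled as GW in D the genotype label named both genes, and which of the 4 libraries it was could not be told from the column names. Every value for GW in D carries that doubt. The assay was a high-throughput 3′ digital gene expression protocol on polyadenylated RNA, which counts tags near the 3′ end of transcripts, so that a level is a number of tags and not a value per length. Levels are given as counts scaled to 1000000 per library (CPM).

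Peroxisomes shorten very long and branched fatty acids that mitochondria cannot take up directly. ABC transporters in the peroxisomal membrane import the acyl-CoA, matrix enzymes carry out the rounds of β-oxidation, and the shortened acyl groups leave as carnitine esters for the mitochondria. The PPAR receptors bind fatty acids and control many of these genes, as is best known for PPARα in rodent liver. The intestinal epithelium meets dietary fatty acids at high load, and both PPARα and PPARδ are expressed in it.

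The libraries held 353347 to 577557 counts, with a median of 483740. They had 9660 to 11085 genes with a count and 7.55% to 10.6% of counts from mitochondrially encoded genes. Ppara averaged 3.80 ± 1.67 CPM under GW and 2.01 ± 1.68 CPM in vehicle in DA. In A it averaged 3.30 ± 2.29 CPM under GW and 3.64 ± 2.14 CPM in vehicle. In D the means were 16.4 ± 11.02 CPM under GW and 10.6 ± 6.38 CPM in vehicle, and in WT 16.4 ± 8.06 CPM under GW and 17.3 ± 7.08 CPM in vehicle (SD over the libraries of each group). In vehicle Ppara was lower in DA than in WT by a log2 fold change of -3.04 ± 0.63 (edgeR adjusted p 0.0237), and A over WT was -2.24 ± 0.53 (edgeR adjusted p 0.0760). The lowest of the 4 libraries of GW in D had 1 count of Ppara and the others 6 to 13. Ppard had 0 to 4 counts per library, which is too few to check its deletion, and the labels do not say which part of the gene was removed. All 8 epithelial markers had counts in every group, with summed levels of 1274 to 2558 CPM per library, and so did all 8 stem cell markers, with 137 to 354 CPM. Of 6 stromal markers 0 to 2 had a count in a group, with a summed level of at most 2.47 CPM per library, and Col1a1, Col1a2, Col3a1 and Pdgfra were at 0 in every group. Of 6 immune markers 1 to 3 had a count in a group, with a sum of at most 9.87 CPM, and Ptprc and Cd3e were at 0 in every group. The libraries fell into runs by the numbers in their column names, 24 numbered 1 to 36 and 14 numbered 37 to 60. Of GW in D and of vehicle in DA the later run held 1 library each.

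Of the 8 members tested after the filter, Crot, Abcd3 and Pxmp4 were those that passed in a comparison. Acaa1b, which the filter removed, passed for GW in WT in a fit without that filter (log2 fold change 2.65 ± 0.57, edgeR adjusted p 0.00324). That fit called 45 genes in all for GW in WT, against 20 with the filter. It also called 12 in D and 9 in DA, where the fit with the filter called 0. In an exact permutation test of its level Acaa1b did not pass in WT (adjusted p 0.0635). Crot, which makes acylcarnitines, rose under GW in A (log2 fold change 0.93 ± 0.21, SE) and in WT (1.07 ± 0.20). The importer Abcd3 rose in WT (0.95 ± 0.18), and the membrane protein Pxmp4 rose in A (1.47 ± 0.32). No member passed in DA or in D. Under GW, Crot, Abcd3 and Pxmp4 were all lower in DA than in WT. Differences are log2 fold changes with standard errors from edgeR's quasi-likelihood test over all 8 groups, and a gene passed at a Benjamini-Hochberg adjusted p of 0.05 over the 4729 genes. In WT, 2 of the 8 tested members rose, against 0.402% of all genes tested. In A, 2 of 8 rose, against 0.296% of all genes. Since the members were chosen with earlier results known, such shares, here and below, describe the members and test nothing about the set. In D and in DA 0 of 8 passed by edgeR, DESeq2 or limma, and 0.0% of all genes did by edgeR. At an unadjusted p under 0.05 there were 3 of the 8 members and 148 genes in all in D, and 0 members and 151 genes in DA. DESeq2 called 3 genes in D and 1 in DA, and limma called 0 in each.

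**Figure D1:**
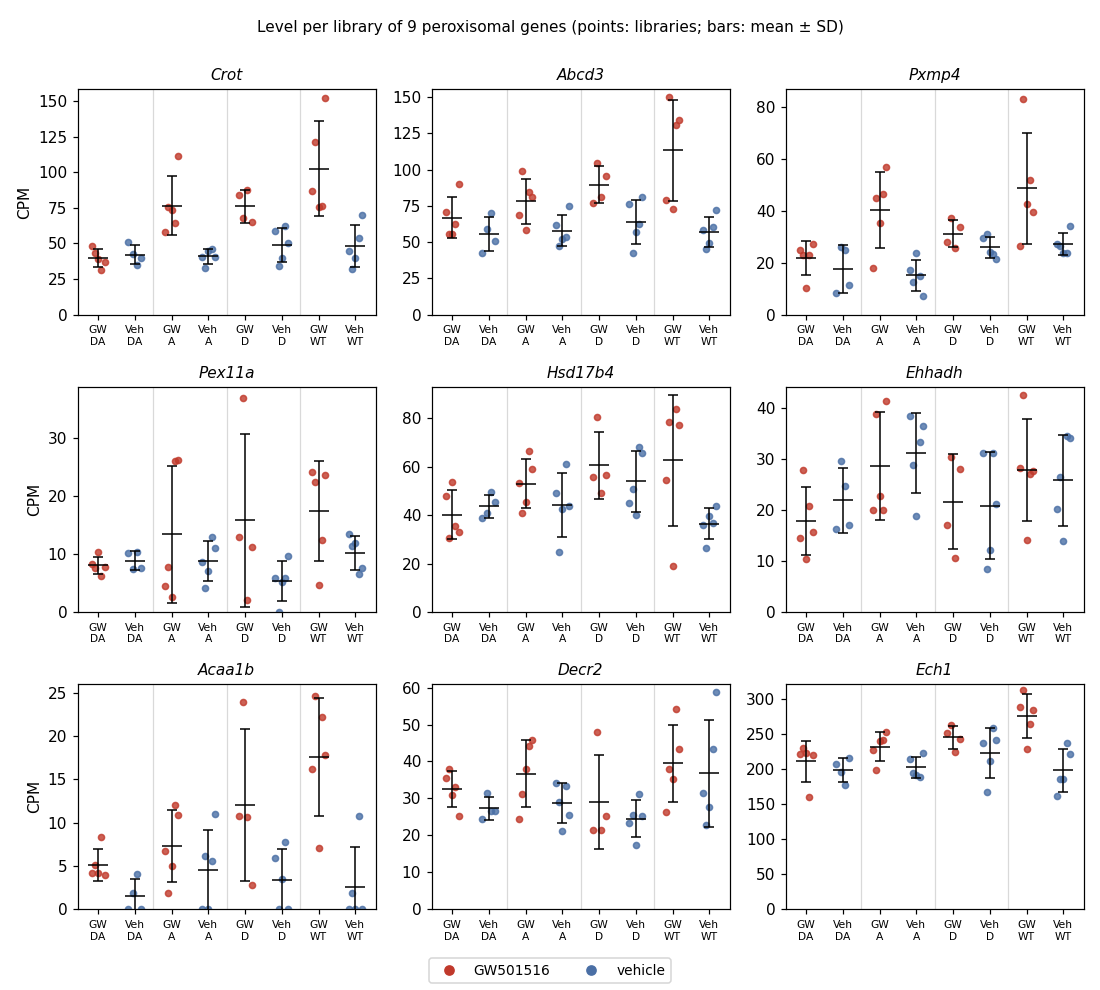
CPM of each of the 9 genes (y axis, starting at 0) in each of the 38 libraries (points) by genotype and treatment, with the mean ± SD of each group as bars, GW501516 in red and vehicle in blue. The 5 GW libraries of WT lie above the 5 vehicle libraries for Crot (75.3 to 152 against 32.1 to 70.2 CPM) and Abcd3 (73.0 to 150 against 45.4 to 72.1 CPM), whereas in DA the 2 treatments overlap for both.

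Crot, carnitine O-octanoyltransferase (ENSMUSG00000003623), lies on the reverse strand of chromosome 5 at 8966033 to 8997324 in mm10. It transfers medium-chain acyl groups to carnitine, the form in which products of peroxisomal β-oxidation leave the organelle. In DA its level was 47.9, 43.0, 39.3, 31.1 and 37.1 CPM under GW and 50.8, 42.6, 35.0 and 39.7 CPM in vehicle. In A it was 57.9, 75.8, 73.2, 64.3 and 111 CPM under GW and 40.6, 33.1, 44.9, 46.3 and 40.2 CPM in vehicle. The treatments overlapped in DA, and in A every GW library stood above every vehicle library. In D the GW libraries had 83.7, 67.5, 87.7 and 64.8 CPM and the vehicle libraries 58.7, 34.0, 39.8, 62.4 and 50.3 CPM. In WT the GW libraries had 86.8, 121, 75.3, 76.5 and 152 CPM and the vehicle libraries 45.0, 32.1, 39.6, 54.0 and 70.2 CPM. In D and in WT as well all GW libraries lay above all vehicle libraries, as was so for 0.529% of all genes in D and 0.719% in WT, and for 0.465% in A. The log2 fold change was 1.07 ± 0.20 in WT (95% interval 0.67 to 1.47, adjusted p 0.00145 by edgeR with Benjamini-Hochberg adjustment), which is 2.10-fold. In A it was 0.93 ± 0.21 (0.51 to 1.35, edgeR adjusted p 0.0251). In D it was 0.63 ± 0.22 (0.20 to 1.07) with an edgeR adjusted p of 1.00, and in DA it was -0.08 ± 0.24 (-0.56 to 0.40). The call in A ended without replicate 2, 3 or 5 of GW in A, or without replicate 1, 2, 4 or 5 of vehicle in A, replicates being numbered in column order. The log2 fold change without each of these was between 0.77 and 0.95. Within the libraries numbered 1 to 36 and 37 to 60 it was 1.26 and 0.87 in WT and 0.84 and 1.04 in A. Within them it was 0.77 and 0.21 in D. With only the groups compared in the fit, the calls of Crot and Abcd3 in WT ended, both with an edgeR adjusted p of 0.0733, and those of Crot and Pxmp4 in A ended with 0.0865 and 0.144. Over all alternatives the adjusted p of Crot ran from 0.000325 to 0.443 in WT and from 0.0153 to 0.910 in A, and that of Abcd3 in WT from 0.000664 to 0.240.

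The response of Crot in DA minus that in WT was -1.15 ± 0.31 on the log2 scale, with a 95% interval from -1.77 to -0.52. Its unadjusted p was 0.000635, and edgeR with Benjamini-Hochberg adjustment gave 0.258, so this test of the difference did not pass over all genes. The response in DA minus that in A was -1.01 ± 0.32 (edgeR adjusted p 0.991), and minus that in D it was -0.71 ± 0.32 (edgeR adjusted p 1.00). The response in A minus that in WT was -0.14 ± 0.29, with an interval from -0.72 to 0.45. Ordered by mean level, Crot stood at 102 ± 33.3 CPM under GW in WT, 76.5 ± 20.8 under GW in A and 75.9 ± 11.4 under GW in D. The remaining groups followed with 49.0 ± 12.1 for vehicle in D, 48.2 ± 14.7 for vehicle in WT, 42.0 ± 6.66 for vehicle in DA, 41.0 ± 5.16 for vehicle in A and 39.7 ± 6.30 for GW in DA. Of the 7 gaps between neighbours in that order, 1 exceeded the larger of the SDs beside it, the 26.9 CPM between GW in D and vehicle in D. None of the 7 gaps did so for any other member.

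Abcd3 (ENSMUSG00000028127), on the reverse strand of chromosome 3 at 121758774 to 121815302, encodes PMP70, an ABC transporter of the peroxisomal membrane that imports long and branched acyl-CoA. In DA it had 70.9, 55.7, 55.8, 62.3 and 89.8 CPM under GW and 42.7, 59.3, 69.9 and 51.1 CPM in vehicle. In WT it had 78.8, 150, 73.0, 131 and 134 CPM under GW and 58.5, 45.4, 49.5, 60.5 and 72.1 CPM in vehicle. In DA 2 of the 5 GW libraries exceeded all vehicle libraries, and in WT all 5 did. The means were 78.3 ± 15.6 under GW and 58.0 ± 10.8 CPM in vehicle in A (SD, n = 5 each). In D they were 89.7 ± 12.7 under GW (n = 4) and 63.9 ± 15.5 CPM in vehicle (n = 5). The treatments overlapped in both, with 3 GW libraries above all vehicle libraries in A and 3 in D. The log2 fold change was 0.95 ± 0.18 in WT (0.58 to 1.33, 1.94-fold, edgeR adjusted p 0.00294). It was 0.47 ± 0.19 in A, 0.47 ± 0.20 in D and 0.27 ± 0.21 in DA, and edgeR's adjusted p was 0.999 or above in each. The response in DA differed from that in WT by -0.68 ± 0.28 (-1.24 to -0.13, edgeR adjusted p 1.00). In the libraries numbered 1 to 36 taken alone the WT value was 0.96 (edgeR adjusted p 0.240). It was 0.96 in those numbered 37 to 60 as well, and the call of Abcd3 held in neither run.

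Pxmp4 (ENSMUSG00000000876), on the reverse strand of chromosome 2 at 154585758 to 154603708, encodes an integral protein of the peroxisomal membrane. In A it had 17.8, 44.7, 35.3, 46.2 and 56.8 CPM under GW and 17.1, 12.4, 23.6, 14.8 and 7.32 CPM in vehicle. In WT it had 26.3, 82.8, 42.4, 51.8 and 39.5 CPM under GW and 27.0, 26.5, 23.8, 23.8 and 34.1 CPM in vehicle. In each of these genotypes 4 of the 5 GW libraries exceeded all 5 vehicle libraries and the remaining one lay among them. The means were 21.7 ± 6.60 under GW and 17.5 ± 9.10 CPM in vehicle in DA, and 31.1 ± 5.23 under GW and 25.9 ± 4.18 CPM in vehicle in D. The log2 fold change was 1.47 ± 0.32 in A (0.81 to 2.12, 2.76-fold, edgeR adjusted p 0.0249). In WT it was 0.80 ± 0.29, with an unadjusted p of 0.00864 and an edgeR adjusted p of 0.490. It was 0.26 ± 0.33 in D and 0.30 ± 0.36 in DA. The larger value in A than in WT was not a tested difference that held, since the response in A minus that in WT was 0.67 ± 0.44 with an interval from -0.22 to 1.55. In vehicle all 5 libraries of A lay below all 5 of WT, as did 0.211% of all genes, and the log2 fold change of A over WT in vehicle was -0.94 ± 0.34 (edgeR adjusted p 0.758). The call of GW in A ended without replicate 2, 4 or 5 of GW in A or without replicate 1, 2, 4 or 5 of vehicle in A, with values between 1.27 and 1.53. It was 0.94 in the libraries numbered 1 to 36 (edgeR adjusted p 0.999) and 2.22 in those numbered 37 to 60 (edgeR adjusted p 0.0365). Over all its alternatives the adjusted p ran from 0.00253 to 0.999.

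The sequences just upstream of these genes are shown because these members passed a test. They are RefSeq promoters of build GRCm38.p6, 5′ to 3′ on the gene's strand, cut to the bases that lie before both the RefSeq and the GENCODE starts. Capitals mark a CCAAT box (CCAAT) or a GC box (GGGCGG) on either strand.
Crot, chr5:8997325-8997396, reverse strand: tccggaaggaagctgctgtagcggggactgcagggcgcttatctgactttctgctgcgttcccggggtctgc
Abcd3, chr3:121815303-121815552, reverse strand: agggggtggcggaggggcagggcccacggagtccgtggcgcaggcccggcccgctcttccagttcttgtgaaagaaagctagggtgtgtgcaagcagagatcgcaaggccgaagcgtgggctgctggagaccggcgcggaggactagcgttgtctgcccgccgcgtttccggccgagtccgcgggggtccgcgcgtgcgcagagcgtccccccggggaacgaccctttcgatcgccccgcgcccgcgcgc
Pxmp4, chr2:154603709-154603923, reverse strand: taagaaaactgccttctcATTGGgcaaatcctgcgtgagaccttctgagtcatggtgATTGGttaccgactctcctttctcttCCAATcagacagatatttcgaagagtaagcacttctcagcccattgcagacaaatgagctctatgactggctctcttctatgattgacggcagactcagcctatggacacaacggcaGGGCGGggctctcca
The Crot stretch of 72 bases and the Abcd3 stretch of 250 bases held neither box, and that of Pxmp4, of 215 bases, held 3 CCAAT boxes and 1 GC box. Over the 250 bases before the RefSeq start, which 8 of the 9 members had, the direct repeat AGGTCANAGGTCA, a PPAR response element, was in 0 members and in 0.0335% of 32851 promoters. Its single repeat AGGTCA was in 0 members and in 14.0% of promoters. CCAAT was in 4 members (Acaa1b, Crot, Ehhadh and Pxmp4) and in 33.8% of promoters, and GGGCGG was in 5 members (Crot, Decr2, Ech1, Ehhadh and Pxmp4) and in 32.7%. Both strands were searched, and the single repeat is contained in the direct repeat. In those 250 bases Crot had 25 CpG dinucleotides, Abcd3 34 or 35 by start and Pxmp4 7, against a median of 6 over all promoters. Of the 250 bases of Crot only the 72 printed lie before its GENCODE start, and they held 5 CpG dinucleotides and neither box. The rest lies inside the GENCODE gene. No match says only that these letters are not in this window.

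The enzymes of the oxidation steps showed no call in the fit with all libraries and the filter, which did not hold Acaa1b. Hsd17b4, on chromosome 18, encodes the D-bifunctional protein, which hydrates and dehydrogenates branched and very long acyl-CoA. Under GW it had 54.5, 78.3, 18.8, 83.9 and 77.0 CPM in WT, against 36, 26.5, 39.6, 36.8 and 43.6 CPM in vehicle. Of the GW libraries 4 stood above all vehicle libraries and replicate 3 below them all. Replicate 3 was also the lowest GW library of WT for Crot, Abcd3, Pex11a, Ehhadh, Acaa1b and Ech1, but not for Pxmp4 or Decr2. Its Hsd17b4 value was not among the outliers flagged below. The log2 fold change in WT was 0.74 ± 0.23 (0.26 to 1.21, edgeR adjusted p 0.311), and without that library it was 0.95 with an edgeR adjusted p of 0.00816. Over its alternatives the adjusted p ran from 0.00816 to 0.927. It was 0.29 ± 0.23 in A, 0.17 ± 0.24 in D and -0.10 ± 0.25 in DA. The response in DA differed from that in WT by -0.84 ± 0.35 (-1.54 to -0.14, edgeR adjusted p 1.00).

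Ehhadh, on chromosome 16, encodes the L-bifunctional enzyme of straight-chain acyl-CoA, known as a PPARα target in rodent liver. Its mean was 17.8 ± 6.72 CPM under GW and 21.9 ± 6.41 in vehicle in DA, and 28.6 ± 10.6 under GW and 31.2 ± 7.80 in vehicle in A. It was 21.6 ± 9.32 CPM under GW and 20.9 ± 10.6 in vehicle in D, and 27.9 ± 10.1 under GW and 25.9 ± 8.95 in vehicle in WT. The treatments overlapped in every genotype. The log2 fold change in WT was 0.08 ± 0.31 with an interval from -0.55 to 0.71, and it was -0.09 ± 0.30 in A, 0.01 ± 0.37 in D and -0.31 ± 0.36 in DA.

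Acaa1b, on chromosome 9, encodes a peroxisomal 3-ketoacyl-CoA thiolase, which carries out the last step of the cycle. It had 121 counts in all, in 29 of the 38 libraries. In DA its counts were 2, 2, 2, 4 and 2 under GW and 0, 1, 2 and 0 in vehicle. In WT they were 8, 11, 3, 9 and 9 under GW and 0, 1, 0, 5 and 0 in vehicle. The WT groups overlapped in 1 library, the vehicle library with 5 counts, which exceeded the GW library with 3. As a level it averaged 17.6 ± 6.78 CPM under GW and 2.54 ± 4.70 CPM in vehicle in WT (SD, n = 5 each; exact two-sided permutation p 0.0159, adjusted over the 4 genotypes 0.0635). In D it averaged 12.0 CPM under GW and 3.43 CPM in vehicle (exact permutation p 0.0952, adjusted 0.127), and in A 7.33 CPM under GW and 4.55 CPM in vehicle (exact permutation p 0.310, adjusted 0.310). In DA it averaged 5.12 CPM under GW and 1.49 CPM in vehicle (exact permutation p 0.0317, adjusted 0.0635), and the summed counts there were 12 under GW and 3 in vehicle. The smallest p that 5 against 5 libraries allow is 0.00794. In the fit without the filter on low counts the log2 fold change in WT was 2.65 ± 0.57 (edgeR adjusted p 0.00324), and in DA it was 1.62 ± 0.83 (edgeR adjusted p 0.909). Its near-identical paralog Acaa1a, with 29.97 CPM under GW and 30.45 CPM in vehicle in WT, may share reads with it, and how the counting split them is not given in the sources used here. Dlec1, which overlaps Acaa1b on the opposite strand, had 1 count in all libraries.

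Decr2 and Ech1 handle the double bonds of unsaturated fatty acids, as a dienoyl-CoA reductase and a dienoyl-CoA isomerase, and Ech1 protein is found in mitochondria too. Ech1, on chromosome 7, had 221, 230, 223, 160 and 221 CPM under GW in DA, against 207, 196, 177 and 216 CPM in vehicle. In WT it had 289, 313, 228, 264 and 284 CPM under GW, against 162, 185, 186, 238 and 222 CPM in vehicle. Of the 5 GW libraries 4 exceeded all vehicle libraries in DA, in A and in WT. The log2 fold change was 0.44 ± 0.12 in WT (0.21 to 0.68), with an edgeR adjusted p of 0.0862 that missed the threshold. It was 0.23 ± 0.12 in A, 0.13 ± 0.12 in D and 0.09 ± 0.13 in DA. Decr2, on chromosome 17, averaged 32.6 ± 4.79 CPM under GW and 27.3 ± 3.01 in vehicle in DA, and 39.5 ± 10.4 under GW and 36.8 ± 14.4 in vehicle in WT. Its log2 fold changes were 0.25 ± 0.25 in DA, 0.38 ± 0.23 in A, 0.26 ± 0.26 in D and 0.06 ± 0.22 in WT, and no interval left out 0.

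Pex11a, on chromosome 7, encodes a membrane protein that elongates peroxisomes before they divide. It was measured with few counts, and 1 vehicle library of D had none. In D it had 12.9, 37, 2.14 and 11.3 CPM under GW and 5.87, 0, 5.19, 5.85 and 9.67 CPM in vehicle. In WT it had 24.2, 22.4, 4.71, 12.3 and 23.7 CPM under GW and 13.5, 11.3, 11.9, 6.49 and 7.58 CPM in vehicle. In both genotypes 3 GW libraries exceeded all vehicle libraries and 1 lay at or under most of them. The log2 fold change was 1.47 ± 0.57 in D (0.31 to 2.63, edgeR adjusted p 1.00), 0.76 ± 0.48 in WT, 0.64 ± 0.51 in A and -0.12 ± 0.59 in DA. An antisense gene, Gm44706, overlaps Pex11a, and since the strand of counting is not given in the sources used here, reads of the pair cannot be told apart. Annotated genes also overlap Crot (Gm15610, Gm27941 and Gm37153), Abcd3 (4633401B06Rik and Gm43609), Hsd17b4 (Cd63-ps) and Ehhadh (Gm24898), with the same limit.

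**Figure D2:**
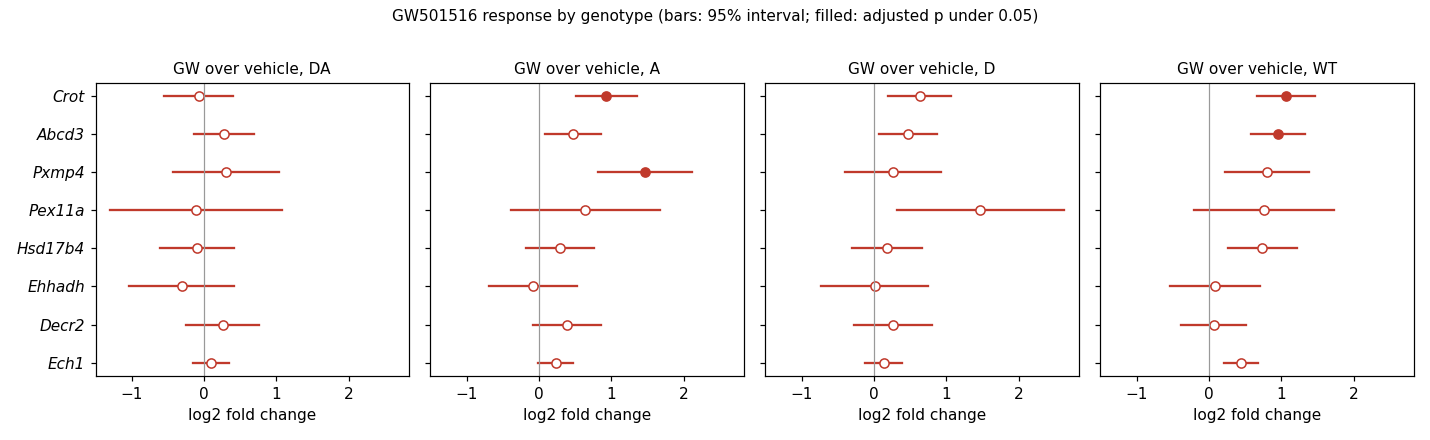
Log2 fold change of GW501516 over vehicle (x axis) for the 8 tested genes in DA, A, D and WT, with 95% intervals from edgeR as bars and filled points for an adjusted p under 0.05. In WT all 8 points lie above 0, from 0.06 to 1.07, and in DA 4 of 8 do, from -0.31 to 0.30.

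Across the members, the GW log2 fold change was positive for 4 of 8 in DA, 7 of 8 in A, 8 of 8 in D and 8 of 8 in WT. The median over the 8 was 0.01 in DA, 0.42 in A, 0.26 in D and 0.75 in WT, and the median over all 4729 genes was 0.00 in DA, A and D and 0.01 in WT. The members were not alike in their course over the 8 group means of log2 CPM. The correlation of a member with the mean of the other 7 was 0.98 for Crot, 0.91 for Abcd3, 0.90 for Ech1 and 0.86 for Pxmp4. It was 0.71 for Pex11a, 0.63 for Hsd17b4, 0.59 for Decr2 and 0.26 for Ehhadh. These are descriptions over 8 points that share libraries. Counting the 5 interaction tests, no member passed: the response in DA minus that in WT had 4 of 8 members and 199 of 4729 genes at an unadjusted p under 0.05, and 0 members by edgeR, DESeq2 or limma after adjustment, while 0.0846% of all genes passed lower by edgeR.

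The comparison of DA with WT under GW showed the largest number of member calls, 3 of 8, all lower in DA, against 0.592% of all genes tested. Crot was lower by a log2 fold change of -1.40 ± 0.20 (-1.81 to -0.99, edgeR adjusted p 3.2e-05). All 5 DA libraries lay below all 5 WT libraries, from 31.1 to 47.9 against 75.3 to 152 CPM, as did 0.782% of all genes. The Crot value stayed past the threshold in all 20 alternatives, with an adjusted p of at most 0.0284 and log2 fold changes from -1.77 to -1.16. Abcd3 was lower by a log2 fold change of -0.78 ± 0.18 (edgeR adjusted p 0.0220), from 55.7 to 89.8 CPM in DA against 73.0 to 150 CPM in WT. Pxmp4 was lower by -1.18 ± 0.30 (edgeR adjusted p 0.0406), from 10.3 to 27.3 CPM in DA against 26.3 to 82.8 CPM in WT. Both pairs of groups overlapped. The Abcd3 call ended without replicate 2 or 5 of GW in WT or replicate 2, 3 or 4 of GW in DA, with values from -0.75 to -0.63. The Pxmp4 call ended without any 1 of replicates 2 to 5 of GW in WT or of replicates 1 to 5 of GW in DA, and it was -0.87 without replicate 2 of GW in WT. All 8 tested members had a negative log2 fold change, with a median of -0.74 against 0.00 over all genes.

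Of the members that missed the threshold in that comparison, Ech1 had -0.41 ± 0.12 (edgeR adjusted p 0.101), Hsd17b4 -0.65 ± 0.23 (edgeR adjusted p 0.279) and Pex11a -1.14 ± 0.50 (edgeR adjusted p 0.473). The Hsd17b4 value passed without replicate 3 of GW in WT. It was -0.23 in the libraries numbered 1 to 36 and -1.22 in those numbered 37 to 60. Ehhadh had -0.69 ± 0.33 and Decr2 -0.29 ± 0.23. The single knockouts under GW had 0 members called by edgeR, DESeq2 or limma. At an unadjusted p under 0.05 there were 3 members and 235 of 4729 genes in A and 0 members and 174 genes in D, and by edgeR 0.0% of all genes passed lower and 0.233% higher in A, and 0.0211% lower and 0.0423% higher in D. The median over the 8 members was -0.26 for A over WT and -0.33 for D over WT. In vehicle 0 of 8 members were called in any knockout by edgeR, DESeq2 or limma, with 0 members and 296 of 4729 genes at an unadjusted p under 0.05 in DA, 1 member and 209 genes in A, and 2 members and 162 genes in D. By edgeR 0.0634% of all genes passed lower and 0.233% higher in vehicle in DA. In A 0.0% passed lower and 0.148% higher, and in D 0.0% lower and 0.0423% higher. Crot over WT in vehicle was -0.25 ± 0.23 in DA, -0.30 ± 0.22 in A and 0.04 ± 0.21 in D. In vehicle Hsd17b4 in D over WT was 0.56 ± 0.24 and Decr2 was -0.58 ± 0.24, both with an edgeR adjusted p of 1.00. The comparisons of GW with vehicle in WT and of DA with WT under GW share the GW libraries of WT, and those libraries had the highest mean of the 8 groups for 8 of the 9 members.

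**Figure D3:**
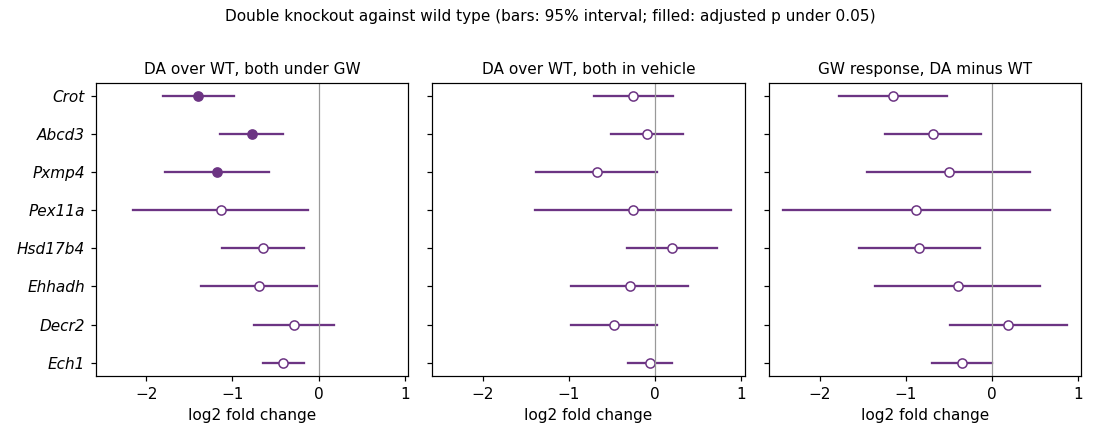
Log2 fold change of DA over WT under GW501516, of DA over WT in vehicle, and of the GW response in DA minus that in WT (x axes) for the 8 tested genes, with 95% intervals from edgeR and filled points for an adjusted p under 0.05. Under GW all 8 points are negative and Crot (-1.40), Pxmp4 (-1.18) and Abcd3 (-0.78) are filled, and no point is filled in the other panels.

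Markers of enterocytes, the absorptive cells, were summed in the same groups. All 15 listed markers had counts in every group and none was at 0. Their summed level per library was 10560 to 20150 CPM under GW and 12050 to 18420 CPM in vehicle in DA, and 22010 to 37090 under GW and 12820 to 18090 in vehicle in A. In D it was 30040 to 52760 CPM under GW and 19490 to 40370 in vehicle, and in WT 32950 to 67810 under GW and 18990 to 26670 in vehicle. Most of that sum came from Fabp1, a fatty acid binding protein. Without Fabp1 the 14 others summed to 4692 to 5662 CPM under GW and 5337 to 7025 in vehicle in DA. In A they summed to 5257 to 9252 CPM under GW and 5069 to 7210 in vehicle. In D it was 6438 to 8596 CPM under GW and 6005 to 7041 in vehicle, and in WT 6439 to 9340 and 5337 to 7903. With Fabp1 the treatments did not overlap in A or in WT, and without it they overlapped in every genotype. Between DA and WT under GW neither sum overlapped. Paneth cell markers summed to 8395 to 16830 CPM per library and goblet cell markers to 2949 to 6527 CPM. For both the treatments overlapped in every genotype. Enteroendocrine markers summed to 181 to 211 CPM under GW and 113 to 164 CPM in vehicle in D, and the treatments overlapped in the other genotypes. The part of any of these cell types in the members' differences was not tested. In bulk samples fewer cells of a type and less RNA per cell cannot be told apart.

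Other genes of the organelle were read from lists named for their roles. Of 24 further genes of peroxisomal β-oxidation 9 were tested, and Eci2, the peroxisomal enoyl-CoA isomerase, was the one that rose. It averaged 130 ± 22.4 CPM under GW and 52.2 ± 5.74 CPM in vehicle in A, and 158 ± 28.3 under GW and 66.0 ± 18.4 in vehicle in WT (SD, n = 5 each). Its log2 fold change was 1.35 ± 0.17 in A and 1.25 ± 0.17 in WT (edgeR adjusted p 3.33e-06 and 3.65e-06). It was 0.50 ± 0.18 in D and 0.31 ± 0.19 in DA. Under GW it was lower in DA than in WT by -1.14 ± 0.17 (edgeR adjusted p 3.18e-05), and so was Dhrs4, a short-chain carbonyl reductase, by -0.77 ± 0.19 (edgeR adjusted p 0.0362). The thiolase Acaa1a had -0.09 ± 0.33 in WT.

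Of 14 genes of membrane transport and structure 10 were tested. Aldh3a2, a membrane-bound fatty aldehyde dehydrogenase found in peroxisomes and the endoplasmic reticulum, rose in WT, with 59.4 ± 20.8 CPM under GW and 24.4 ± 4.32 in vehicle. Its log2 fold change was 1.22 ± 0.24 (edgeR adjusted p 0.00334), and under GW DA was lower than WT by -1.14 ± 0.24 (edgeR adjusted p 0.00793). The carrier Slc25a17 had 0.22 ± 0.21 in WT. Of 20 peroxins and division factors 8 were tested and none passed in any genotype, with a median of -0.01 and values from -0.28 to 0.27 in WT. Of 20 other matrix enzymes 10 were tested and none passed, with 9 of 10 positive and a median of 0.35 in WT. Catalase (Cat), which removes hydrogen peroxide, had 0.35 ± 0.27 there. Of 18 mitochondrial β-oxidation genes 16 were tested, and 0 passed in DA, 5 rose in A, 0 passed in D and 4 rose in WT. Those in WT were the carnitine-acylcarnitine carrier Slc25a20 (1.31 ± 0.27), the dehydrogenase Acadl (0.98 ± 0.22) and the trifunctional protein subunits Hadha (0.96 ± 0.19) and Hadhb (0.77 ± 0.13). In A the thiolase Acaa2 (0.73 ± 0.16) joined these 4. The median log2 fold change in WT was 0.46 for the mitochondrial list and 0.15 for the further peroxisomal β-oxidation genes. It was 0.21 for the membrane list, beside 0.75 for the 8 members. Members and lists were chosen with earlier results of these data known, so this order is a description only.

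**Figure D4:**
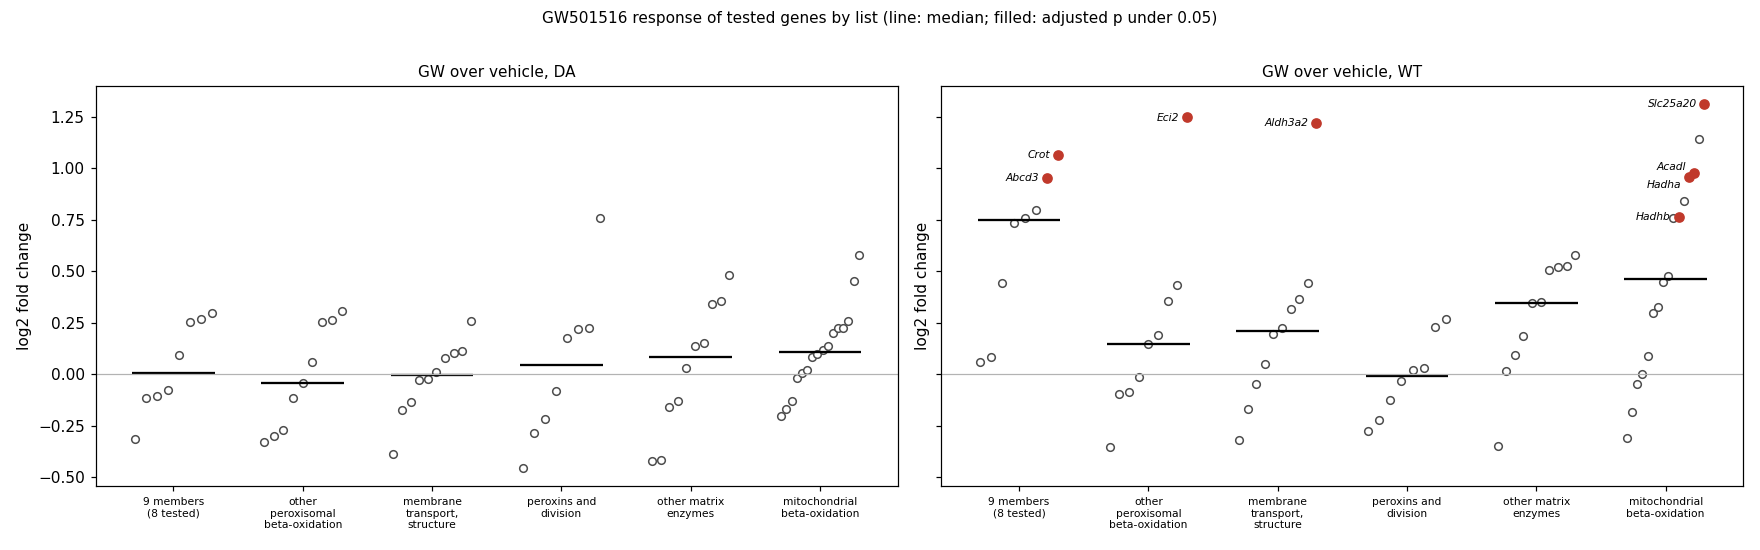
Log2 fold change of GW501516 over vehicle in DA and in WT (y axis) for each tested gene, by list, with the list's median as a line and filled, named points for an adjusted p under 0.05. In WT 8 genes are filled, Crot and Abcd3 among them, and the peroxin list has a median of -0.01, while in DA no point is filled.

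The mean of the 8 members, each centred on its own mean over the groups in log2 CPM, was -0.21 under GW and -0.25 in vehicle in DA and 0.21 under GW and -0.22 in vehicle in A. It was 0.20 under GW and -0.13 in vehicle in D, and 0.46 under GW and -0.06 in vehicle in WT. Similar courses were ranked among 4330 protein-coding genes with a symbol whose mean log2 CPM was 4 or more. The members and predicted genes, named Gm with a number, were left out. Closest to the members' mean over the 8 group means was Apoc2, an apolipoprotein, with a correlation of 0.99. Then came Reg3g, an antimicrobial lectin (0.96), Adipor2, an adiponectin receptor (0.96), the apolipoprotein Apoa4 (0.96), Hsdl2, a peroxisomal dehydrogenase-like protein (0.96), and Hadhb (0.95). The points share libraries, and Apoa4 and Reg3g are also on the enterocyte marker list. Hsdl2 had a mean log2 CPM of 4.23 under GW and 4.22 in vehicle in DA, and 5.61 under GW and 4.43 in vehicle in WT.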

How the data were processed

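The authors deposited a table of counts per Ensembl gene, whole numbers made with Salmon 1.1.0, R 3.6.2 and edgeR 3.26.8 on mouse build mm10 per the submitters' processing notes, and a second table that by its values holds log2(CPM + 1). Turned back into counts, 88.6% of the nonzero deposited log2 values were whole to within 0.01, so the count table holds rounded estimates. The annotation release, the handling of molecular identifiers, the strand of counting and any filter are not given in the sources used here. Of 57 columns 38 were used, matched to groups by treatment and genotype in their names. The 19 others were not matched to a sample and are not used here. Of the columns used, 5 carry a suffix 2 that no label explains. Within groups, 72 pairs of libraries differed by more than sampling noise, at 1.70 to 9.88 of chi-square per degree of freedom.

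Symbols came from GENCODE, where 54109 of 54352 identifiers matched and 243 did not. Counts were filtered with edgeR's filterByExpr by group (4729 genes), scaled by TMM and fitted over all 8 groups with glmQLFit and glmQLFTest (edgeR 4.0.16, R 4.3.3), adjusted by Benjamini-Hochberg within each of 15 contrasts. The fit was tested on simulated data. Acaa1b was tested with an exact permutation test of CPM. Alternatives were RLE size factors, DESeq2 1.42.0, limma 3.58.1 with a prior count of 2, limma on the deposited log2 values, no filter, only the groups compared, a term for the run of library numbers, each run alone, no columns with a suffix 2, and each library left out. Named genes were the members, Ppara, Ppard, genes of the lists that passed, Acaa1a, Cat, Slc25a17 and the 6 genes of most similar course. Some genes of the lists are counted in the totals and are not reported here. The members and lists were chosen with earlier results of these data known. Totals of 353347 to 577557 counts limit the precision of genes with few counts, and intervals cover the spread between libraries only.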

Additional observations from a re-analysis of the deposited data

Results flagged for a closer look

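Among the 72 combinations of gene and group examined, 5 had 1 library whose distance to its nearest neighbour took more of the group's range than Dixon's 95% critical value (0.829 for 4 libraries and 0.710 for 5). Chance flags about 1 in 20 groups. Pxmp4 had a lowest value of 10.3 CPM under GW in DA, where the others had 22.8 to 27.3 CPM. Ech1 had a lowest value of 160 CPM under GW in DA, where the others had 221 to 230 CPM. Decr2 had a highest value of 47.9 CPM under GW in D, where the others had 21.4 to 25.4 CPM. Acaa1b had a highest value of 8.31 CPM under GW in DA and of 10.8 CPM in vehicle in WT, from 4 and 5 counts.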

How the results depend on the processing

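Of 17 log2 fold changes recomputed under 354 alternatives in all, 300 kept their direction and their side of the threshold, 50 kept the direction but no longer passed, 1 passed that had not, and 3 changed sign. The 3 were all Crot for GW in DA, at 0.048 in the libraries numbered 1 to 36, 0.003 without replicate 4 of GW in DA and 0.029 without replicate 1 of vehicle in DA. With each library left out that value ran from -0.137 to 0.029. The 50 all belonged to values that passed as reported, since a value that had not passed could not lose a call. For GW in WT they were 2 of 20 alternatives for Crot and 3 of 20 for Abcd3. For GW in A they were 12 of 20 for Crot and 9 of 20 for Pxmp4. The rest were for DA against WT under GW and are given below. Members called for GW in WT were 2, against 0 with only the groups compared, 1 in libraries 1 to 36, 0 in libraries 37 to 60, 3 with no filter (Acaa1b added), and 2 to 3 with each library left out. For GW in A they were 2, against 1 by limma on the deposited log2 values, 1 with no filter, 0 with only the groups compared, 0 in libraries 1 to 36, 1 in libraries 37 to 60, and 0 to 2 with each library left out. For DA against WT under GW they were 3, against 1 by limma on the deposited log2 values, 1 with only the groups compared, 1 in libraries 1 to 36, and 1 to 3 with each library left out. Of those 3 calls, Crot held in all 20 alternatives, while Abcd3 ended in 10 and Pxmp4 in 14. The members called there were Crot and Abcd3 by limma, and Crot and Pxmp4 with no filter. Subsets hold fewer libraries by construction, and the cause of the other changes was not tested. In 12 of the 15 contrasts no member was called under any alternative. Genes called in all ranged from 11 to 45 for GW in WT (20 as reported), from 3 to 28 for GW in A (14) and from 19 to 109 for DA against WT under GW (40). Scaled by TMM factors, Acaa1b differed by 14.9 CPM in WT instead of 15.0, with the same adjusted exact permutation p of 0.0635. No paired analysis was possible because the columns carry no replicate numbers in their names. At these depths Pex11a and Acaa1b rest on a few counts per library.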
